A study of Homo sapiens with 8 samples.

Results

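This report describes 10 genes of the integrated stress response and the unfolded protein response in H9 (WA09) human embryonic stem cells (hESCs), an established line derived from a blastocyst. ATF4, DDIT3, TRIB3, ASNS, CHAC1, HSPA5, XBP1, ATF3, PSAT1 and PHGDH were chosen by name, and their expected counts and TPM values were taken in all 8 samples. They are 10 of 60675 genes in the files, and all 10 were among the 19499 genes with enough counts to be tested. The 4 isogenic lines of H9 hESCs differed in time in culture: P1 hESCs were at passages in the 40s, P2 hESCs in the 100s, P3 hESCs in the 200s and P4 hESCs in the 300s, with 2 RNA-seq samples per line. All were grown without feeder cells on Matrigel in mTeSR1 medium, and none carried a transgene or received a drug. The study asked how late (P3 and P4) hESCs differ from early (P1 and P2) hESCs in surviving stress, and the late lines carry a copy number gain at 20q11.21. Each line is a single long-term culture of the same parental cells, so passage and the history of that culture cannot be told apart. The labels do not say whether the 2 samples of a line came from separate cultures, and p-values measure only the spread between these samples.

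In the integrated stress response, kinases that sense amino acid shortage, unfolded proteins, heme shortage or viral RNA phosphorylate the translation initiation factor eIF2. General translation then falls while ATF4 is translated more, and ATF4 switches on genes for amino acid supply and, with CHOP (the product of DDIT3), genes linked to cell death. In the unfolded protein response of the endoplasmic reticulum (ER), the sensor PERK feeds into the same eIF2 branch, IRE1 splices XBP1 mRNA, and ATF6 is cleaved to a transcription factor that raises chaperones such as HSPA5 (BiP). Both pathways bear on how cells cope with stress.

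Promoters of some of the 10 genes carried binding motifs of the 2 pathways. RefSeq promoters on GRCh38.p14, from 250 bases before to 50 bases after each start, were found for all 10 genes, in 17 windows of 300 bases, and both strands were searched. The C/EBP-ATF response element searched as TGATGNAA, a form bound by ATF4 with a C/EBP partner, was present in promoters of ASNS, ATF3 and CHAC1, and in 3.62% of all 35116 promoters. The ER stress response element, CCAAT and CCACG with 9 bases between them, was present in promoters of HSPA5 and XBP1, and in 0.0769% of all promoters. The unfolded protein response element TGACGTGG (0.729% of all promoters) and the cAMP response element TGACGTCA (1.85%) were in none of the 17 windows. These matches describe letters in the windows and were not tested for binding. Promoters of ATF4, DDIT3, TRIB3, PSAT1 and PHGDH held none of the motifs searched. The stretches around the matches are shown with the motif in capitals. They read 5′ to 3′ on the strand of the gene, and the CHAC1 match lies on the opposite strand. Starts are those of the RefSeq promoters. The ASNS and CHAC1 stretches lie inside the annotated span of their gene, which begins further upstream.
ASNS, chr7:97872458-97872487, minus strand, 68 bases before the start: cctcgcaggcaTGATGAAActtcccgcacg
CHAC1, chr15:40953251-40953280, plus strand, 209 bases before the start: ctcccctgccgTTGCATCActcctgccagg
ATF3, chr1:212565157-212565283, plus strand, 191 bases before the start: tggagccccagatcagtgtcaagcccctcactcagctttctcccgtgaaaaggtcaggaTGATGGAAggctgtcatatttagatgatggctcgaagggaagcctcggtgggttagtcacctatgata
HSPA5, chr9:125241344-125241469, minus strand, 66 bases before the start: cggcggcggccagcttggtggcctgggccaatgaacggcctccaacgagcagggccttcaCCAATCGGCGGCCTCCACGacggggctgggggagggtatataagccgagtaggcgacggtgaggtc
XBP1, chr22:28800598-28800626, minus strand, 52 bases before the start: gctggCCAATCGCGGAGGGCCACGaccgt

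The samples held 26874899 to 38095600 expected counts. The share of counts from mitochondrially encoded genes was 6.55% and 6.72% in P2 hESCs, but differed between the 2 samples of the other lines (9.84% and 18.5% in P1, 18.4% and 7.53% in P3, and 17.2% and 5.89% in P4 hESCs). The summed level of 10 markers of undifferentiated hESCs was 7305 to 8503 CPM (counts scaled to one common library size) in all samples. Of 7 mesendoderm markers the sum was 2.71 to 8.09 CPM. Of 7 fibroblast markers it was 754 to 1225 CPM, from COL1A1, COL1A2, THY1 and PDGFRB, while COL3A1 and LUM had at most 1 count in any sample. Of 5 neuroectoderm markers it was 631 to 1097 CPM, almost all from NES and OTX2. In such bulk samples, fewer cells of a type and less RNA per cell cannot be told apart.

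Per length (TPM, a length-scaled share of all transcripts, mean of 8 samples), ATF4 was the most abundant of the 10 genes at 417, followed by PHGDH at 305, HSPA5 at 245, PSAT1 at 136, ASNS at 76.7, XBP1 at 73.5, CHAC1 at 53.7, DDIT3 at 34.1, ATF3 at 33.0 and TRIB3 at 8.64. The ranges over the 8 samples of each neighbouring pair in this order overlapped. CHAC1 varied most over samples, with the highest CPM 15.3 times the lowest, followed by DDIT3 (9.63 times) and ATF3 (4.998 times), and PHGDH varied least (1.52 times). Below, levels are in CPM on normalized library sizes, which compare 1 gene between samples.

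Among the 4 lines, 4 of the 10 genes differed by the quasi-likelihood test of edgeR, with p-values adjusted by Benjamini-Hochberg, beside 13.1% of all tested genes: CHAC1 (adjusted p = 0.00147), ATF3 (adjusted p = 0.00525), DDIT3 (adjusted p = 0.00851) and TRIB3 (adjusted p = 0.0347). The mean was highest in P2 hESCs for 7 genes (ATF4, DDIT3, TRIB3, ASNS, CHAC1, ATF3 and PSAT1) and lowest in P3 hESCs for 5 of those 7 (ATF4, DDIT3, TRIB3, CHAC1 and ATF3). For none of the 7 did P2 hESCs pass edgeR's test against the line with the second highest mean (adjusted p = 0.0886 for TRIB3 to 0.911 for DDIT3). The share of all tested genes with such an order was not taken, so the order of means is a description only. The mean of HSPA5 was highest in P1 and lowest in P2 hESCs, and HSPA5 did not pass the test among the lines (adjusted p = 0.134). XBP1 and PHGDH did not pass either, with mean CPM highest in P3 hESCs but mean TPM highest in P2 hESCs.

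**Figure D1:**
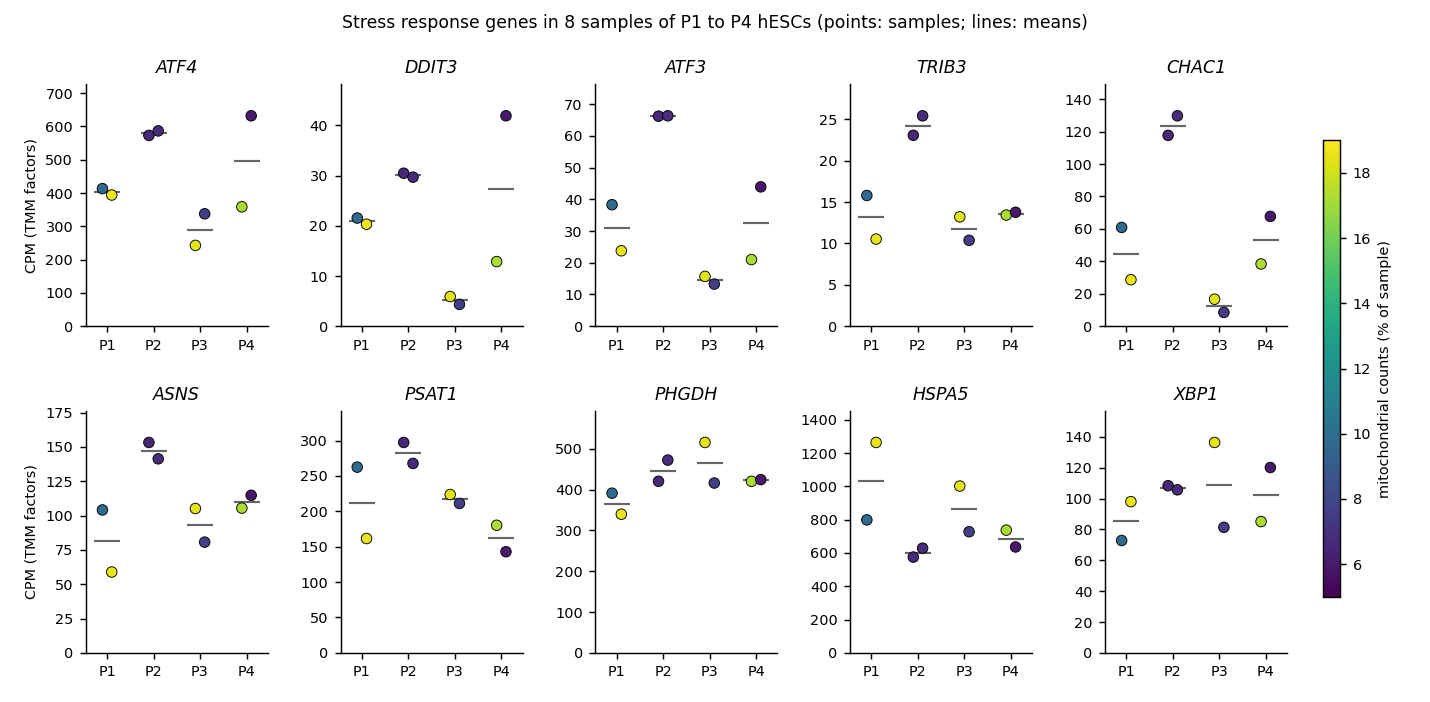
CPM of the 10 genes (y axes, each from 0) in P1, P2, P3 and P4 hESCs (x axes); each point is a sample, the grey line is the mean of the 2 samples, and the color is the share of mitochondrial counts. CHAC1 was 118 and 129.8 CPM in P2 hESCs and 16.7 and 8.48 CPM in P3 hESCs, while the PHGDH samples stayed between 339.7 and 516 CPM.

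ATF4 (chr22:39519695-39522685, plus strand), the transcription factor at the centre of the response, was 413 and 394 CPM in P1, 573 and 587 CPM in P2, 243 and 338 CPM in P3, and 359 and 632 CPM in P4 hESCs. Both P3 samples lay below all others, and 1 P4 sample was the highest of all while the other was lower than either P1 sample. The line means ± SD (n = 2) were 404 ± 13.6, 580.0 ± 9.54, 290.2 ± 67.1 and 495 ± 193 CPM. ATF4 is controlled largely by translation, and RNA counts do not show its protein.

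DDIT3 (chr12:57516588-57521737, minus strand), which encodes the pro-apoptotic factor CHOP, was 21.5 and 20.3 CPM in P1, 30.5 and 29.7 CPM in P2, 5.91 and 4.35 CPM in P3, and 12.9 and 41.9 CPM in P4 hESCs. The P3 samples were the lowest 2 of the 8, and the P4 samples spanned a 3.25-fold range that held all P1 and P2 samples. DDIT3 exons share 355 bases with MARS1 and 58 with MBD6 on the opposite strand, and whether the counting used the strand is not given in the sources used here. They also share 105 bases with AC022506.1, a gene on the same strand that was not analysed here. MARS1 was 228 and 255 CPM in P3 and 265 and 283 CPM in P2 hESCs and did not pass the test between them (log2 fold change -0.18 ± 0.18, adjusted p = 0.531).

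ATF3 (chr1:212565334-212620777, plus strand), a stress-induced factor of the same family, was 38.3 and 23.8 CPM in P1, 66.2 and 66.3 CPM in P2, 15.7 and 13.3 CPM in P3, and 21.0 and 43.9 CPM in P4 hESCs. The P2 samples were above and the P3 samples below all the others. Its mean in P2 hESCs was 4.57 times that in P3 hESCs.

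TRIB3 (chr20:362835-397559, plus strand), a pseudokinase that feeds back on ATF4 and CHOP, was 15.8 and 10.5 CPM in P1, 23.1 and 25.4 CPM in P2, 13.2 and 10.4 CPM in P3, and 13.4 and 13.8 CPM in P4 hESCs. The P2 samples stood above the other 6, whose lines overlapped or nearly touched. TRIB3 lies on the short arm of chromosome 20, outside 20q11.21.

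CHAC1 (chr15:40952962-40956519, plus strand), which degrades glutathione and is a target of ATF4, ATF3 and CHOP, was 60.9 and 28.7 CPM in P1, 118 and 129.8 CPM in P2, 16.7 and 8.48 CPM in P3, and 38.4 and 67.7 CPM in P4 hESCs. The P2 samples were above and the P3 samples below all others, and P1 and P4 overlapped. Its mean was 9.85 times higher in P2 than in P3 hESCs, the widest span of line means among the 10 genes.

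Of the 3 genes of amino acid synthesis, ASNS and PSAT1 had their highest samples in P2 hESCs. ASNS (asparagine synthetase, chr7:97852118-97872542, minus strand) was 104 and 58.9 CPM in P1, 153 and 141 CPM in P2, 105 and 80.7 CPM in P3, and 105 and 115 CPM in P4 hESCs. PSAT1 (phosphoserine aminotransferase, in the serine pathway, chr9:78297143-78330093, plus strand) was 263 and 162 CPM in P1, 297 and 268 CPM in P2, 224 and 211 CPM in P3, and 180.4 and 143 CPM in P4 hESCs. For both, the P2 samples were above all others, and the P1 samples spread more widely than those of any other line.
PHGDH (the first enzyme of serine synthesis, chr1:119648411-119744226, plus strand) was 391 and 339.7 CPM in P1, 420.4 and 472 CPM in P2, 516 and 416 CPM in P3, and 420.3 and 424 CPM in P4 hESCs. The P1 samples were the lowest, and the other lines overlapped. None of the 3 enzymes passed the test among the 4 lines (adjusted p = 0.107 for ASNS, 0.134 for PSAT1 and 0.505 for PHGDH). ASNS shares 1985 exon bases with a same-strand transcript that was not analysed here, and its pseudogenes held at most 0.392% of its count.

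The ER branch was represented by HSPA5 and XBP1. HSPA5 (chr9:125234853-125241330, minus strand), the main Hsp70 chaperone of the ER, was 799 and 1264 CPM in P1, 575 and 629 CPM in P2, 1002 and 728 CPM in P3, and 737 and 636 CPM in P4 hESCs. In CPM both P2 samples were below all others, and P1, P3 and P4 did not separate in full. XBP1 (chr22:28794555-28800597, minus strand), the transcription factor of the IRE1 branch, was 72.8 and 98.02 CPM in P1, 108 and 106 CPM in P2, 136 and 81.4 CPM in P3, and 85.1 and 120.1 CPM in P4 hESCs, with overlap among P1, P3 and P4. Its mean TPM was highest in P2 hESCs (87.2 ± 1.80, against 60.7 ± 5.996 in P1, 70.7 ± 8.97 in P3 and 75.6 ± 30.3 in P4, SD, n = 2), so the order of P2 and P3 turned with the scale. Neither passed the test among the lines (adjusted p = 0.134 for HSPA5 and 0.673 for XBP1), and gene totals do not show the splicing of XBP1.

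Between P3 and P4 hESCs and P1 and P2 hESCs, the late against early comparison of the study, no member passed the test, beside 7.54% of all tested genes. With no adjustment, 3 members had p under 0.05, and neither DESeq2 nor limma on TPM called any. The log2 fold changes, late minus early, ran from -1.36 ± 0.59 (SE) for CHAC1 to 0.14 ± 0.20 for XBP1, with a median of -0.35, against a median of 0.01 for all tested genes. No member had all 4 late samples above or below all 4 early samples, which held for 8.38% (above) and 9.19% (below) of tested genes. The late group joined P3 hESCs, low for DDIT3, CHAC1 and ATF3, with P4 hESCs, whose samples overlapped those of P1 hESCs in all 3. Without P4 replicate 2, the sample with the highest DDIT3 and ATF4 of all, 3 members were called lower in late hESCs (DDIT3, CHAC1 and ATF3, at -1.73, -1.996 and -1.55).

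P2 hESCs were compared with P1 hESCs, the 2 early lines. In 9 of 10 members both P2 samples were above both P1 samples (24.2% of tested genes), and in HSPA5 both were below (24.1%). No member passed edgeR's test, in which 0.00513% of genes were called. At an unadjusted p under 0.05 there were 5 members (TRIB3, ASNS, CHAC1, HSPA5 and ATF3), and DESeq2 called 1, CHAC1. The largest log2 fold changes were 1.47 ± 0.38 for CHAC1 (adjusted p = 0.327), 1.09 ± 0.32 for ATF3 (adjusted p = 0.393) and 0.88 ± 0.25 for TRIB3 (adjusted p = 0.375).

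Between P3 and P2 hESCs more members were called than in any other pair of lines. In this comparison 5 of 10 were called, all lower in P3 hESCs, where 11.7% of tested genes were called and 6.67% called lower. The log2 fold change, P3 minus P2, was -3.30 ± 0.41 for CHAC1 (adjusted p = 0.000491), -2.55 ± 0.42 for DDIT3 (adjusted p = 0.00324) and -2.19 ± 0.33 for ATF3 (adjusted p = 0.00166), and these 3 passed the rule of the study for differentially expressed genes (DEGs; absolute log2 fold change above 1 and FDR under 0.01), as did 3.42% of tested genes. It was -1.04 ± 0.25 for TRIB3 (adjusted p = 0.0206) and -0.999 ± 0.26 for ATF4 (adjusted p = 0.0303). HSPA5 (0.52 ± 0.25, adjusted p = 0.185), ASNS (-0.67 ± 0.25, adjusted p = 0.103), PSAT1, PHGDH and XBP1 did not pass. CHAC1, DDIT3 and ATF3 remained called when either P2 sample was left out, which left those 3 members in all. With the mitochondrial share as a covariate the same 3 were called, and ATF4 and TRIB3 had adjusted p = 0.0556 and 0.0505. With P3 replicate 1 or P3 replicate 2 left out, when the lone P3 sample was assumed to vary like the other lines, the log2 fold changes were -3.87 and -2.89 for CHAC1, -2.79 and -2.35 for DDIT3 and -2.32 and -2.08 for ATF3, and all 3 were called in both fits. In the same comparison 4 of 6 tested mesendoderm markers were called lower in P3 hESCs (EOMES, GATA6, TBXT and GATA4) and 1, FOXA2, was higher. In P3 hESCs EOMES had 3 and 3 counts and GATA6 2 and 1 counts, at or under the detection floor of 3 counts and too few for a fold change. The summed level of the whole list was 7.01 and 6.02 CPM in P2 and 8.09 and 7.17 CPM in P3 hESCs. DESeq2 called 1 of the 6 lower and 1 higher, and the part of these markers in the members' change was not tested.

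P3 hESCs were also lower than P1 hESCs in 3 members, where 12.5% of genes were called and 8% called lower. The log2 fold change, P3 minus P1, was -2.03 ± 0.42 for DDIT3 (adjusted p = 0.00967), -1.84 ± 0.39 for CHAC1 (adjusted p = 0.0109) and -1.10 ± 0.32 for ATF3 (adjusted p = 0.0437). With each sample left out in turn the log2 fold change was -2.27 to -1.82 for DDIT3, -2.40 to -1.18 for CHAC1 and -1.40 to -0.70 for ATF3, while 1 call was left without P1 replicate 1 (DDIT3), 1 without P1 replicate 2 (CHAC1) and 0 without P3 replicate 2. ATF3 also lost its call without P3 replicate 1 (adjusted p = 0.105) and without either P2 sample.

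In P4 hESCs, CHAC1 and DDIT3 were higher than in P3 hESCs, where 3.31% of genes were called and 2.19% called higher. The log2 fold changes, P4 minus P3, were 2.42 ± 0.42 for DDIT3 (adjusted p = 0.0105) and 2.08 ± 0.39 for CHAC1 (adjusted p = 0.0151). Both P4 samples were above both P3 samples in 6 members (22.9% of tested genes): ATF4, DDIT3, TRIB3, ASNS, CHAC1 and ATF3. ATF3 (1.16 ± 0.32, adjusted p = 0.0711) and ATF4 (0.77 ± 0.26, adjusted p = 0.132) did not pass. Without P3 replicate 2 neither gene was called, without P4 replicate 2 only DDIT3 was called, with its log2 fold change at 1.33, and without P4 replicate 1 there were 4 calls (ATF4, DDIT3, CHAC1 and ATF3). This comparison shares the P3 samples, and the one before shares the P1 and P3 samples, with other comparisons, so their values are not independent.

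P4 hESCs did not differ from the early lines in any member by edgeR's test. Against P1 hESCs 0 were called (5.94% of tested genes), with 1 at an unadjusted p under 0.05 and log2 fold changes from -0.59 ± 0.25 for HSPA5 to 0.43 ± 0.25 for ASNS. DESeq2 also called 0, and without P4 replicate 1 there was 1 call, DDIT3. Against P2 hESCs 0 were called (4.44% of tested genes), with 4 at an unadjusted p under 0.05 (TRIB3, CHAC1, ATF3 and PSAT1). DESeq2 called those 4. The log2 fold change of CHAC1 was -1.22 ± 0.38 (adjusted p = 0.103) and that of PSAT1 -0.81 ± 0.24 (adjusted p = 0.0871), and DDIT3 and ATF3 were called without P4 replicate 2 and PSAT1 without P1 replicate 1.

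**Figure D2:**
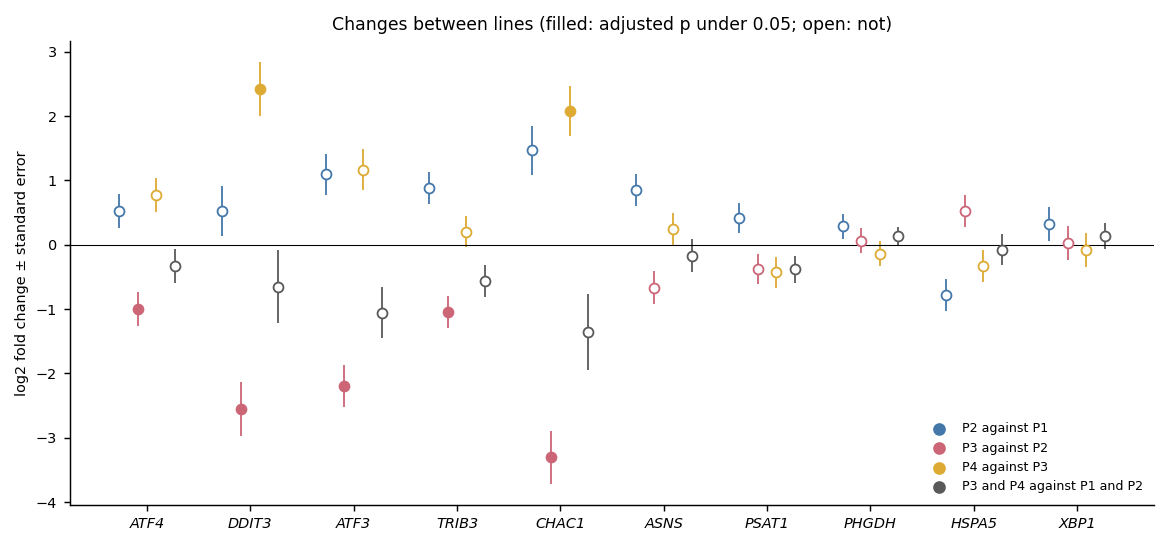
Log2 fold changes (y axis, bars are standard errors) of the 10 genes (x axis) between neighbouring lines and between late and early hESCs; filled points passed the test at an adjusted p under 0.05. The 5 filled points for P3 against P2 hESCs lie between -3.30 and -0.999, and no point of P2 against P1 or of late against early hESCs is filled.

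Within lines, few members followed the mitochondrial share in P1, P3 and P4 hESCs, 1 of 10 in each direction. This was near the share of all tested genes. In CPM, ATF4 was lower and HSPA5 higher in the sample with more mitochondrial counts in P1, P3 and P4 hESCs, a direction shared by 13.7% (lower) and 13.9% (higher) of tested genes. The ratios of HSPA5 were 1.58 in P1, 1.38 in P3 and 1.16 in P4 hESCs. Those of ATF4 went the other way and were 1.05, 1.39 and 1.76. In TPM, ATF4 kept its direction in all 3 lines, while HSPA5 was lower in the P3 sample with more mitochondrial counts (240.5 against 249.5) and in such a P4 sample (207.8 against 216.6), so the shared direction of HSPA5 held only in CPM. DDIT3, ATF3 and CHAC1 were lower in the P4 sample with more mitochondrial counts and higher in such a P3 sample, so their direction was not shared. In a model with the line and the mitochondrial share, added after the data were seen, HSPA5 changed by 0.41 ± 0.14 (log2) and ATF4 by -0.47 ± 0.15 per 10 percentage points, and neither passed the adjustment (adjusted p = 0.320 and 0.284; 0.19% of genes passed). Values of like size that did not pass were -0.49 ± 0.21 for ATF3 (adjusted p = 0.431) and -0.50 ± 0.31 for DDIT3 (adjusted p = 0.587). The part of the mitochondrial share in the differences between lines was not tested beyond this covariate.

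**Figure D3:**
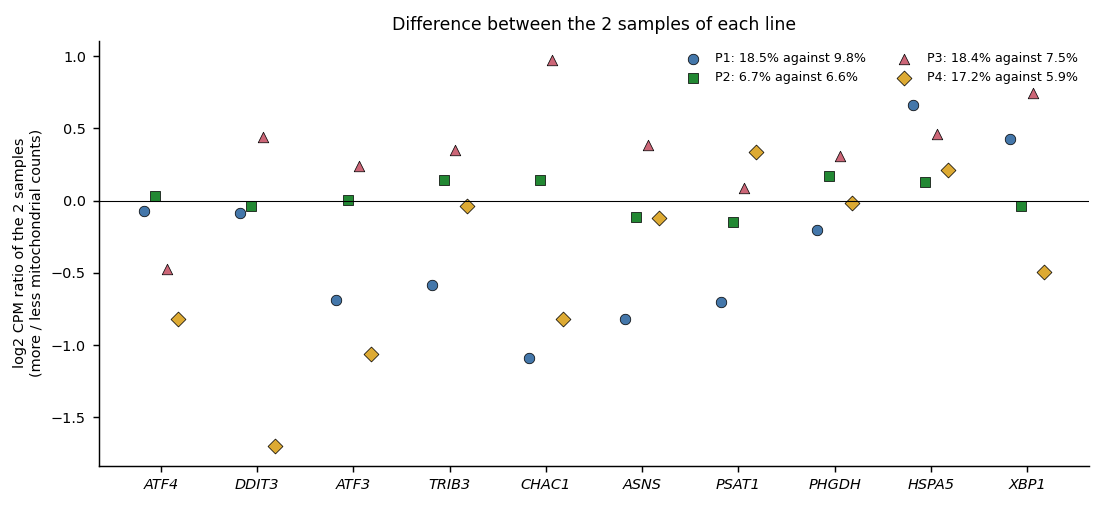
Log2 ratio of the 2 samples of each line (y axis), the sample with more over the sample with less mitochondrial counts, for the 10 genes (x axis); the symbols are the 4 lines and the legend gives both shares. HSPA5, in CPM, is above 0 in all 4 lines, and DDIT3 in P4 hESCs is the lowest point at -1.70.

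Other genes of both pathways were grouped into lists. For late against early hESCs, where 7.54% of all tested genes were called, 0 to 2 genes of each list passed. Of 18 genes for eIF2 kinases, eIF2B and the eIF2 phosphatase, 2 subunits of the exchange factor eIF2B rose, EIF2B2 (0.53 ± 0.13, adjusted p = 0.0372) and EIF2B3 (0.54 ± 0.13, adjusted p = 0.0339). Of 19 stress and feedback targets of ATF4 and CHOP, 1 fell, the secreted peptide gene ADM2 (-1.30 ± 0.32, adjusted p = 0.0318). Of 12 amino acid transporters 2 fell, SLC7A5, which carries large neutral amino acids (-1.16 ± 0.21, adjusted p = 0.00832), and SLC7A1, which carries cationic amino acids (-0.57 ± 0.14, adjusted p = 0.0291).
In ER-associated degradation and translocation, 1 of 19 fell, EDEM2 (-0.68 ± 0.17, adjusted p = 0.0313), a gene that trims glycans of misfolded proteins. No gene passed among 20 ER chaperones and folding enzymes, 12 sensors and processing factors of the unfolded protein response, 20 cytosolic aminoacyl-tRNA synthetases and 14 ATF and C/EBP factors. At an unadjusted p under 0.05 these 4 lists had 1, 3, 4 and 1 genes, and DESeq2 called 0, 1, 2 and 0. With each sample left out in turn the log2 fold changes were 0.463 to 0.575 for EIF2B2 and 0.473 to 0.573 for EIF2B3. They were -1.50 to -1.10 for ADM2 and -0.756 to -0.581 for EDEM2. Without either P2 sample, in smaller fits, no call was left in the eIF2 list, the ATF4 and CHOP target list or the degradation list. The eIF2 list also had 0 calls without P3 replicate 1 or P4 replicate 1, and the target list had 0 without either P3 sample. The degradation list also had 0 without P3 replicate 2 or P4 replicate 1. Without P4 replicate 2 these lists had 2, 4 and 3 calls.

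In P3 against P2 hESCs many targets of ATF4 and CHOP fell. Of 19 tested targets 10 were called lower and 0 higher, beside 6.67% called lower among all tested genes, with a median log2 fold change of -1.13 against -0.01 for all genes. Without TRIB3 and CHAC1, 8 of the other 17 were lower. They were chosen for naming here after their values were seen. The log2 fold change was -1.90 ± 0.22 for STC2, a secreted stress-induced glycoprotein (adjusted p = 0.000266), -2.24 ± 0.25 for ADM2 (adjusted p = 0.000195) and -1.56 ± 0.26 for SESN2, an inhibitor of mTORC1 (adjusted p = 0.00321).
GDF15, a secreted stress cytokine, was 9.91 and 12.6 CPM in P2 and 0.727 and 0.307 CPM in P3 hESCs (-4.45 ± 0.53, adjusted p = 0.000376). FGF21, another secreted target, had 46 and 56 counts in P2 and 3 and 3 counts in P3 hESCs, too few for a fold change. The count of targets called lower was 6 to 11 with any P2, P3 or P4 sample left out, the lowest without P2 replicate 2, and 8 with the mitochondrial share as a covariate.
In P4 against P3 hESCs 8 of the 19 were higher and 0 lower, beside 2.19% of all tested genes called higher, among them GDF15 at 10.2 and 29.5 CPM in P4 (5.27 ± 0.54, adjusted p = 0.000246) and STC2 (1.18 ± 0.21, adjusted p = 0.0121). That count was 2 without P4 replicate 2, 3 without P3 replicate 2 and 5 without P3 replicate 1. It was 3 with limma on log2(TPM + 1), and 1 target was called lower with DESeq2 and without P3 replicate 2.

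Of 14 ATF and C/EBP factors, 5 were lower in P3 than in P2 hESCs, beside 6.67% of all tested genes called lower. Of the 5, 3 were members, while 11 of the 14 factors are not members. The other 2 were CEBPB (-1.50 ± 0.28, adjusted p = 0.00565), a partner of ATF4, and JDP2 (-1.48 ± 0.32, adjusted p = 0.0135), a repressor of the same family. Without P2 replicate 2 the count was 2, and 3 without P2 replicate 1 or P3 replicate 1. PPP1R15A (GADD34), the stress-induced subunit of the eIF2 phosphatase and a target of CHOP, was the only called gene of the 18 in the eIF2 list, at -1.18 ± 0.33 (adjusted p = 0.0394). Its call was lost with either P2 or either P3 sample left out.

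Genes that ATF4 uses for amino acid supply were compared between P2 and P3 hESCs. Of 20 genes of amino acid, serine and one-carbon synthesis 2 were called lower in P3 than in P2 hESCs, beside 6.67% of all tested genes, with a list median of -0.13. PYCR1, the mitochondrial proline-synthesis enzyme, was 96.8 and 86.7 CPM in P1, 141 and 146 CPM in P2, 0.316 and 0.0837 CPM in P3, and 104 and 139 CPM in P4 hESCs. The P3 samples held 10 and 3 counts against 2752 to 5773 in the others, and the fitted log2 fold change to P2 was -9.50 ± 0.39 (adjusted p = 4.14e-08), with 1 P3 sample at the detection floor of 3 counts. ALDH1L2, a mitochondrial folate enzyme, was the other (-1.50 ± 0.41, adjusted p = 0.0343), and lost its call without either P2 or either P3 sample.
SLC7A5 (-1.44 ± 0.28, adjusted p = 0.00829) and SLC7A1 (-0.62 ± 0.18, adjusted p = 0.0466) were the 2 called of 12 transporters, and without P2 replicate 2 there were 0. Of 20 tRNA synthetases, 1 was called, RARS1, which was higher (0.64 ± 0.19, adjusted p = 0.0446), near the 5.08% of all tested genes called higher. Its call needed both P2 and both P3 samples, and was lost with the mitochondrial share as a covariate.

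The ER lists were also compared between P2 and P3 hESCs. Of 20 ER chaperones and folding enzymes 3 were higher in P3 hESCs, beside 5.08% of all tested genes: PPIB, a prolyl isomerase (1.00 ± 0.25, adjusted p = 0.0239), PDIA3, a disulfide isomerase (0.87 ± 0.25, adjusted p = 0.0447), and HSP90B1, the Hsp90 of the ER (0.81 ± 0.22, adjusted p = 0.0353). The list median was 0.37. PPIB was 818 and 473 CPM in the P3 samples, higher in the one with more mitochondrial counts, and the count of called chaperones was 0 with that sample left out, 0 with either P2 sample left out, 0 with the mitochondrial share as a covariate and 5 without P3 replicate 2.
In degradation and translocation, SEC61B, a subunit of the translocon, was higher (0.73 ± 0.20, adjusted p = 0.0347) and HERPUD1, a stress-induced degradation factor, lower (-1.45 ± 0.27, adjusted p = 0.00576) of 19 genes. The call of SEC61B was lost with the mitochondrial share as a covariate and with limma on log2(TPM + 1). It also needed both P2 samples and P3 replicate 1. With each sample left out in turn its log2 fold change was 0.524 to 0.903. Of 12 sensors and processing factors none passed edgeR's test (3 at an unadjusted p under 0.05, and DESeq2 called 1), and IRE1 itself, ERN1, was 2.81 and 5.05 CPM in P3 and 7.18 and 7.73 CPM in P2 hESCs (adjusted p = 0.101).

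**Figure D4:**
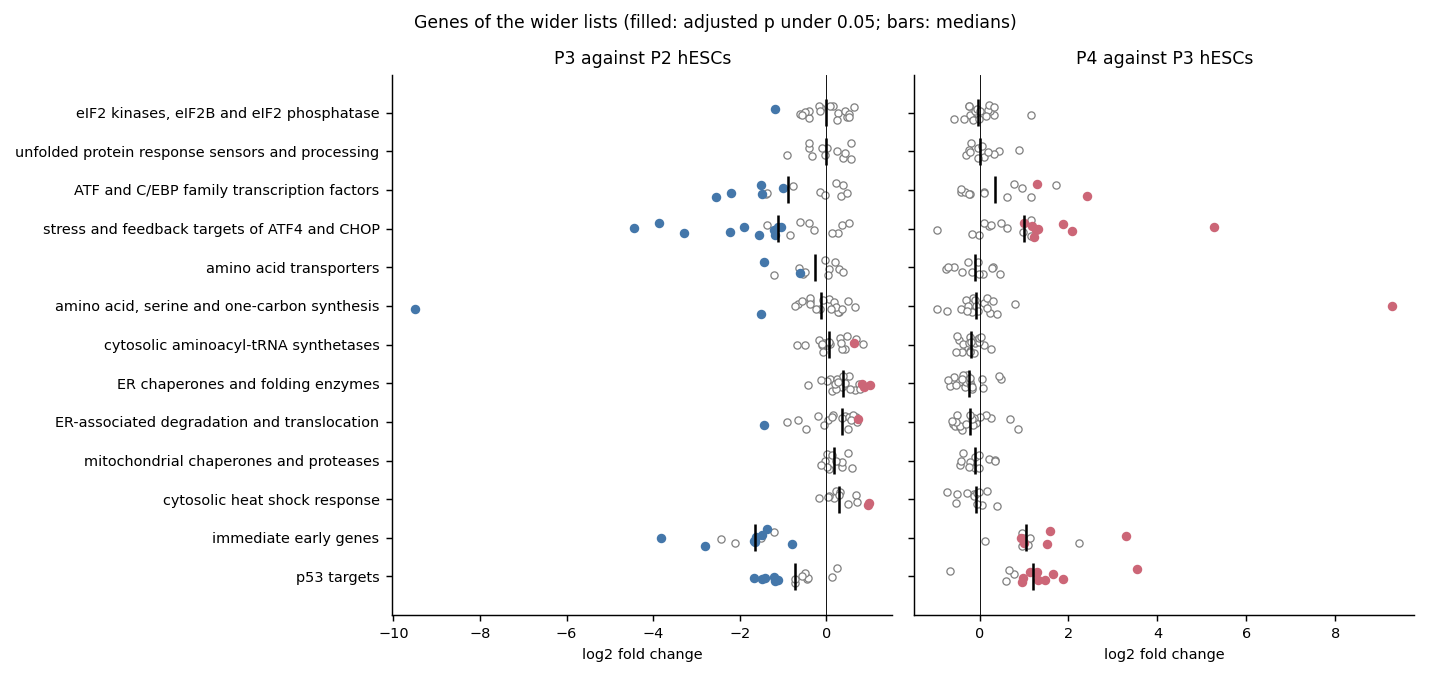
Log2 fold changes (x axis) of the genes of 13 lists (rows, members included) for P3 against P2 and for P4 against P3 hESCs; filled points passed the test, blue lower and red higher, open points did not, and black bars are list medians. Targets of ATF4 and CHOP had a median of -1.13 in the left panel; the point near -9.50 is PYCR1, which like FGF21 had 3 counts in a P3 sample.

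Some genes had profiles over the 8 samples most like those of DDIT3, ASNS and HSPA5, by Pearson's r of log2 CPM among genes with a mean of at least 10 CPM. These are descriptions over samples that share lines and mitochondrial shares. Nearest to DDIT3 were PLA2G6 (r = 0.991), KNDC1 (0.984), SERPINB1 (0.981), HDAC4 (0.977) and ZFP36 (0.975). Nearest to ASNS were C1orf115 (0.979), KNOP1 (0.972), VTI1B (0.951), ZFP82 (0.944) and SMOX (0.942). Nearest to HSPA5 were PXDN (0.973), STT3A (0.970), NOMO1 (0.967), ATP6AP1 (0.965) and FBLN1 (0.963), and no other member was among the 5 nearest of any of the 3 genes.

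ATF4 and XBP1 lie on chromosome 22. The median log2 fold change of 485 tested genes of chromosome 22 was -0.19 in P3 against P2 and -0.23 in P3 against P1 hESCs, while the medians of all tested genes were -0.01 and -0.02. ATF4 was at -0.999 and -0.48 in those comparisons and XBP1 at 0.02 and 0.35. The part of chromosome 22 dosage in them was not tested.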

How the data were processed

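Strand-specific mRNA libraries of the 8 samples were sequenced by the authors. Per the labels and the submitters' processing notes, reads were trimmed with Trim Galore, checked with FastQC, aligned to GRCh38 with STAR 2.7.3a and quantified with RSEM 1.3.3, one file per sample. The authors deposited expected counts per gene, which are estimated and not normalized, and TPM values, which are scaled for length and for the sample total. Deposited FPKM values were looked at but not tested, and the annotation release is not given in the sources used here.

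Rounded expected counts were fitted by edgeR 4.0.16 under R 4.3.3 (TMM factors, filterByExpr by line, quasi-likelihood test, Benjamini-Hochberg adjustment over 19499 genes). Late against early hESCs used 2 groups of 4 samples; lines were compared in a model of 4 groups of 2. A gene was called at an adjusted p under 0.05. Standard errors are the absolute log2 fold change over the root of the F value. The samples held 26874899 to 38095600 counts, and the detection floor was 3 counts (0.073 to 0.103 CPM); the floor covers counting error only. Alternatives were DESeq2 1.42.0, its size factors, no filter, a replicate block, limma 3.58.1 on log2(TPM + 1) or log2(TPM + 0.1), the mitochondrial share as a covariate, removal of mitochondrial genes, only the samples compared, the DEG rule and leaving out each sample. The fitting code was tested on simulated data. Promoters came from RefSeq.

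Named genes were all 10 members, up to 2 genes with the highest and 2 with the lowest changes among the called genes of each list, and the 5 genes most like ASNS, HSPA5 and DDIT3. The members and lists were chosen with earlier results of these data known, and genes named from comparisons of single lines, the list counts with samples left out and the mitochondrial term were added after their values were seen. A result that this rule would name is not reported here.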

Additional observations from a re-analysis of the deposited data

Results flagged for a closer look

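Among the 20 groups of 4 samples (10 genes in early and in late hESCs), 2 had a sample far from the others, where chance gives 1. The measure was Dixon's ratio of gap to range, taken on log2 CPM, and each group joined 2 lines. TRIB3 in P3 and P4 hESCs had a ratio of 0.855, because P3 replicate 2 was at 10.4 CPM and the others at 13.2, 13.4 and 13.8 CPM. PHGDH in P3 and P4 hESCs had a ratio of 0.908, because P3 replicate 1 was at 516 CPM and the others between 416 and 424 CPM.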

How the results depend on the processing

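With 2 samples per line, counts of called members moved with the settings, and the causes were not tested. For late against early hESCs the count was 0, and 2 with no filter on low counts. For P2 against P1 it was 0, and 1 with DESeq2, 3 with no filter and 2 with only the 4 samples compared. For P3 against P1 it was 3, and 0 with log2(TPM + 1) in limma without a filter and 1 by the DEG rule. For P3 against P2 it was 5, and 3 with limma on log2(TPM + 1) or log2(TPM + 0.1), 3 with the mitochondrial share as a covariate, 3 by the DEG rule and 0 with TPM and no filter. For P4 against P2 it was 0, and 4 with DESeq2, 3 with no filter, 3 with only the 4 samples compared and 1 with the replicate block. For P4 against P3 it was 2, and 4 with no filter, 1 with log2(TPM + 1), 0 with TPM and no filter and 0 by the DEG rule. For any difference among the lines it was 4, and 8 with no filter and 0 with TPM and no filter. With each sample left out in turn, counts were 0 to 3 for late against early hESCs, 0 to 3 for P3 against P1, 0 to 1 for P4 against P1, 3 to 5 for P3 against P2, 0 to 2 for P4 against P2, 0 to 4 for P4 against P3 and 3 to 5 among the lines.

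The replicate numbers in the labels did not pair the samples (correlations of replicate differences between lines -0.0901 to 0.138), and the replicate block changed no other count of members. In late against early hESCs, some uncalled values changed sign. XBP1 (0.14) was -0.0232 with log2(TPM + 1), with and without the filter, -0.0235 with log2(TPM + 0.1) and -0.0104 to 0.243 with a sample left out, negative without P3 replicate 1. PHGDH (0.13) was -0.00486 with log2(TPM + 1), with and without the filter, and -0.00481 with log2(TPM + 0.1). With a sample left out, ASNS (-0.17) was -0.389 to 0.00063, positive without P2 replicate 1, and HSPA5 (-0.07) was -0.222 to 0.217, positive without P1 replicate 2 and, at 0.00994, without P4 replicate 2. DDIT3 and CHAC1 had at least 156 and 304 counts in every sample.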

Other observations

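Genes induced by p53 also differed between the lines. In P4 against P3 hESCs, 10 of 14 p53 targets were called higher and 0 lower, where 2.19% of all tested genes were called higher. CDKN1A (p21, a cell cycle inhibitor) was 8.44 and 3.85 CPM in P3 and 57.0 and 86.0 CPM in P4 hESCs (3.54 ± 0.36 on the log2 scale, adjusted p = 0.000241 by edgeR's quasi-likelihood test). The apoptosis gene BAX was 37.98 and 48.2 CPM in P3 and 96.2 and 113 CPM in P4 hESCs (1.28 ± 0.20, adjusted p = 0.00486). Without P3 replicate 1 there were 3 calls, without P4 replicate 2 there were 4, and with limma on log2(TPM + 1) there were 2. In P3 against P2 hESCs 6 of the 14 were lower and 0 higher, beside 6.67% of all tested genes called lower, and 2 without P2 replicate 2 and 3 without P2 replicate 1 or P3 replicate 1. In late against early hESCs edgeR called 0, with 1 at an unadjusted p under 0.05, and DESeq2 called 0. BBC3 belongs to this list and to that of ATF4 and CHOP targets. Whether other genes listed as targets of ATF4 and CHOP also respond to p53 was not tested, so changes in that list cannot be assigned to 1 pathway.

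Of 12 immediate early genes, 2 were called lower in late than in early hESCs, EGR1 (-2.41 ± 0.62, adjusted p = 0.0385) and EGR2 (-2.07 ± 0.47, adjusted p = 0.0234), beside 7.54% of all tested genes called. Without either P2 sample 0 were called, 1 without either P3 sample and 6 without P4 replicate 2. EGR1, a growth factor response gene, was 438 to 468 CPM in the 4 early samples, 23.3 and 141 CPM in P3 and 16.2 and 162 CPM in P4 hESCs. In P3 against P2 hESCs 8 of the 12 were lower, beside 6.67% of all tested genes (4 without P2 replicate 2 or without P3 replicate 1, 5 with the mitochondrial share as a covariate and 10 without either P4 sample), among them FOSL1, an AP-1 subunit, at 13.9 and 17.8 CPM in P2 and 1.36 and 0.892 CPM in P3 hESCs (-3.81 ± 0.36, adjusted p = 6.01e-05). Of 12 cytosolic heat shock genes, HSPA8 (0.74 ± 0.15, adjusted p = 0.0132) and HSPA4 (0.53 ± 0.13, adjusted p = 0.0323), both chaperones of the Hsp70 group, were higher in late hESCs, and 0 were called without either P2 sample. Of 12 mitochondrial chaperones and proteases edgeR called 0, with 2 at an unadjusted p under 0.05, and DESeq2 called 2.

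Among marker lists, PODXL was the 1 called of 10 undifferentiated hESC markers in late against early hESCs (-0.65 ± 0.15, adjusted p = 0.0284), and PDGFRB the 1 of 4 tested fibroblast markers (-0.90 ± 0.19, adjusted p = 0.0184), beside 7.54% of all tested genes called. Both lists had 0 calls without either P2 sample or without P4 replicate 1. The undifferentiated list also had 0 without P3 replicate 2. DESeq2 called 1 of the 4 fibroblast markers higher and 1 lower. Of 6 tested mesendoderm markers 4 were called lower in P3 than in P2 hESCs and 1 was higher, with EOMES and GATA6 at or under 3 counts in P3 hESCs. FOXA2, an endoderm factor and the one that was higher, was 6.76 and 6.33 CPM in P3 hESCs and 0.135 to 0.977 CPM in all others, while the mesendoderm factor EOMES had 3 and 3 counts in P3 and 17 to 118 counts in all others. Of 3 tested neuroectoderm markers 0 were called in late against early hESCs, with 1 at an unadjusted p under 0.05, and DESeq2 called 0.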
